A study of Mus musculus with 8 samples.

Results

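The genes described here are 46 mouse genes of the lysosome, the acidic compartment in which cells digest material. They were chosen by symbol: lysosomal hydrolases and their cofactors, membrane proteins, subunits of the proton pump, and the 3 transcription factors Tfeb, Tfe3 and Mitf. Cathepsins and Lipa were left out of the list by its rule, and the list was chosen with earlier results of these data known. All 46 were found among the 34866 genes of the table, and all 46 passed the low-count filter that left 12480 genes for testing. RNA came from epididymal adipose tissue, the fat pad beside the epididymis, of male mice. The 4 control samples were Aromatase flox/flox, with both copies of the aromatase gene Cyp19a1 flanked by loxP sites. The 4 knockout samples were aP2-Cre;Aromatase flox/flox and carried the same floxed alleles together with Cre recombinase driven by the Fabp4 (aP2) promoter. That promoter is active in adipocytes and is known to be active in other cells too, macrophages among them. No group carrying aP2-Cre alone was analysed here, the labels give no age, and nothing in them says whether samples came from separate animals, so p-values measure only the spread between these samples, which may be technical. The study asked which genes lie downstream of aromatase in fat and bear on phosphorus metabolism.

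Lysosomal enzymes are made in the endoplasmic reticulum, tagged with mannose phosphate in the Golgi and delivered to a compartment that the vacuolar proton pump keeps acidic. Many of their genes share a promoter element read by TFEB, TFE3 and MITF, which enter the nucleus when nutrient signalling at the lysosome surface falls. In fat, lysosomes of adipocytes take part in autophagy, and those of macrophages digest lipid and cell debris taken up from dying adipocytes.

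Libraries were sequenced from the 3′ ends of transcripts and held 1538427 to 3053565 estimated counts, with control replicate 4 the smallest and knockout replicate 4 the largest. Levels are given as CPM, counts scaled to library size by TMM factors. They are compared between libraries, and are also summed over lists and set beside such sums, but single genes are not ranked by level. A count of 0 would allow up to 3 counts, or 0.982 to 1.95 CPM by library; this limit covers counting error alone, because reads copied by PCR are not separate molecules. No member was at 0 in any library, and the lowest value was 5 estimated counts, for Atp6v0d2 in control replicate 4. Cyp19a1, the targeted gene, had 2, 1, 5.02 and 1 estimated counts for controls 1 to 4 and 0, 4, 2.08 and 1.59 for knockouts 1 to 4, too few to check the deletion (exact permutation test, two-sided, p = 0.629, where 0.0286 is the lowest this design allows). The adipocyte marker Adipoq was at 2410 to 3419 CPM among controls and 2110 to 3814 CPM among knockouts. Of 12 epididymal epithelium markers, 6 were at 0 in every library and 1, Aqp9, passed the low-count filter. The 12 together summed to 6.29 to 19.9 CPM among controls and 5.58 to 25.8 CPM among knockouts, so some epididymal RNA is not excluded.

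Of the 46 lysosomal genes, 0 passed an adjusted p of 0.05 (edgeR quasi-likelihood), where 0.168% of all tested genes did. An unadjusted p under 0.05 was found for 8, against 6.39% of all tested genes in either direction. All 8 had higher means in the knockout libraries: Laptm5, Creg1, Atp6v0d2, Psap, Hexa, Atp6v1b2, Lgmn and Mitf. That is 17.4% of the members, against 3.52% of all tested genes with such a p and a higher knockout mean. No member had an unadjusted p under 0.05 and a lower mean, against 2.87% of all tested genes. Since the list was chosen with earlier results of these data known, these shares describe it and are no test of it. With DESeq2, and with edgeR without the low-count filter, 3 members passed an adjusted p of 0.05, namely Laptm5, Creg1 and Atp6v0d2, where 0.441% and 0.253% of all genes tested passed.

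The median log2 fold change (knockout over control) of the 46 was 0.06, against -0.00 over all tested genes, and 32 of 46 had a positive value, against 49.7% of all tested genes. With upper-quartile factors 29 of 46 were positive, and with limma-voom 27. The fold change was under 0.1 in size, on the log2 scale, for 19 members and above 0.3 for 11. Without the 8 genes named above the median of the other 38 was 0.03, with 24 of 38 positive; removing the highest genes lowers a median by construction. The summed level of all 46 was 5470 to 5969 CPM among controls and 6053 to 6577 CPM among knockouts. Its mean was 5770 CPM among controls and 6288 CPM among knockouts. Psap alone had means of 863 and 1165 CPM, so a single gene weighs heavily in this difference. The sum of the other 38 was 4376 to 4527 CPM and 4346 to 4638 CPM.

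**Figure D1:**
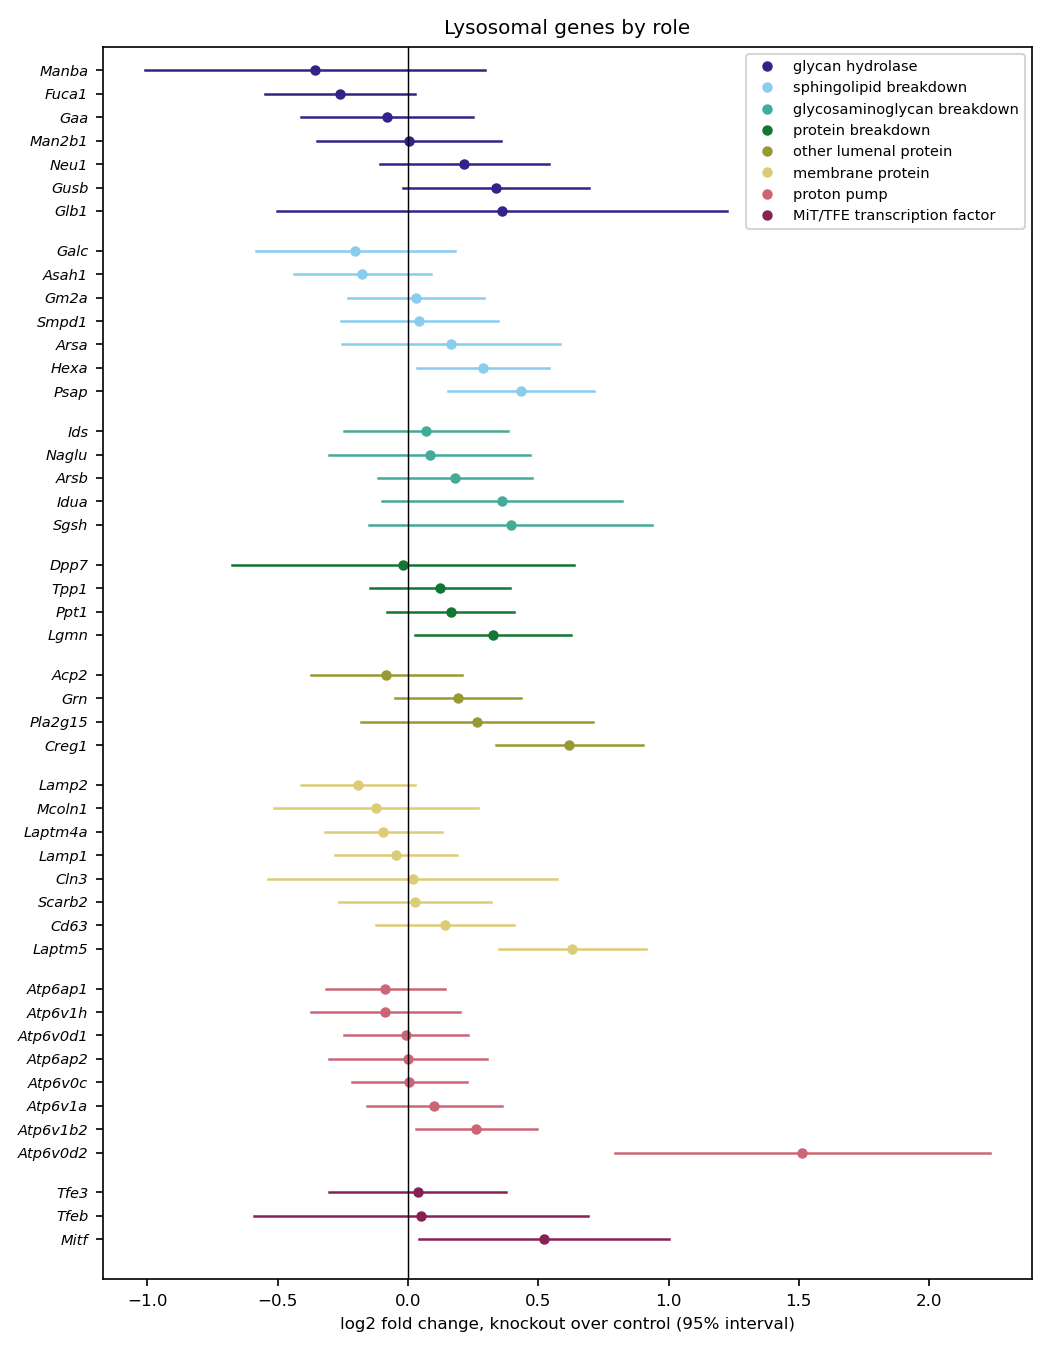
Log2 fold change, knockout over control, of each of the 46 lysosomal genes with its 95% interval from the quasi-likelihood fit (n = 4 libraries a genotype), grouped and coloured by role. The intervals of 8 genes lie above 0, none lies below 0, and Atp6v0d2 stands farthest right at 1.51.

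Macrophage markers were also higher in the knockout libraries, and since the tissue was profiled in bulk, more cells of a type and more RNA per cell cannot be told apart. Of 20 macrophage markers, 19 were tested and 17 had higher means in the knockout libraries (89.5%, against 49.7% of all tested genes). Of these, 12 had an unadjusted p under 0.05 (63.2% of the 19, against 3.52% of all tested genes). An adjusted p of 0.05 was passed by 4 (Lyz2, Cybb, Gpnmb and Cd68), where 0.12% of all tested genes passed with a higher mean. Their summed level was 1242, 1177, 1206 and 1081 CPM for controls 1 to 4 and 1632, 1683, 1627 and 2001 CPM for knockouts 1 to 4. The knockout libraries lay above all control libraries, and none of the 20 markers was at 0 in every library. Cd163, a receptor for haemoglobin complexes on resident macrophages, had a mean of 45.0 CPM among controls and 39.5 CPM among knockouts. The summed adipocyte markers overlapped, at 48394 to 63498 CPM among controls and 40872 to 59189 CPM among knockouts. Of 15 tested, 3 had higher means (20%, against 49.7% of all tested genes). At an unadjusted p under 0.05, 2 were lower, Retn and Acsl1 (13.3%, against 2.87% of all tested genes). Among the tested markers of dendritic cells, mast cells, neutrophils, lymphocytes, endothelium, stroma and mesothelium, such a p was found for Vwf and Clec3b, both lower. They are 1 of 10 tested endothelial and 1 of 10 tested stromal markers, against 2.87% of all tested genes. Only 1 of 10 lymphocyte, 2 of 8 neutrophil and 4 of 7 dendritic cell markers were tested, so these cell types were barely covered. The part of macrophage RNA in the values of the lysosomal genes was not tested.

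**Figure D2:**
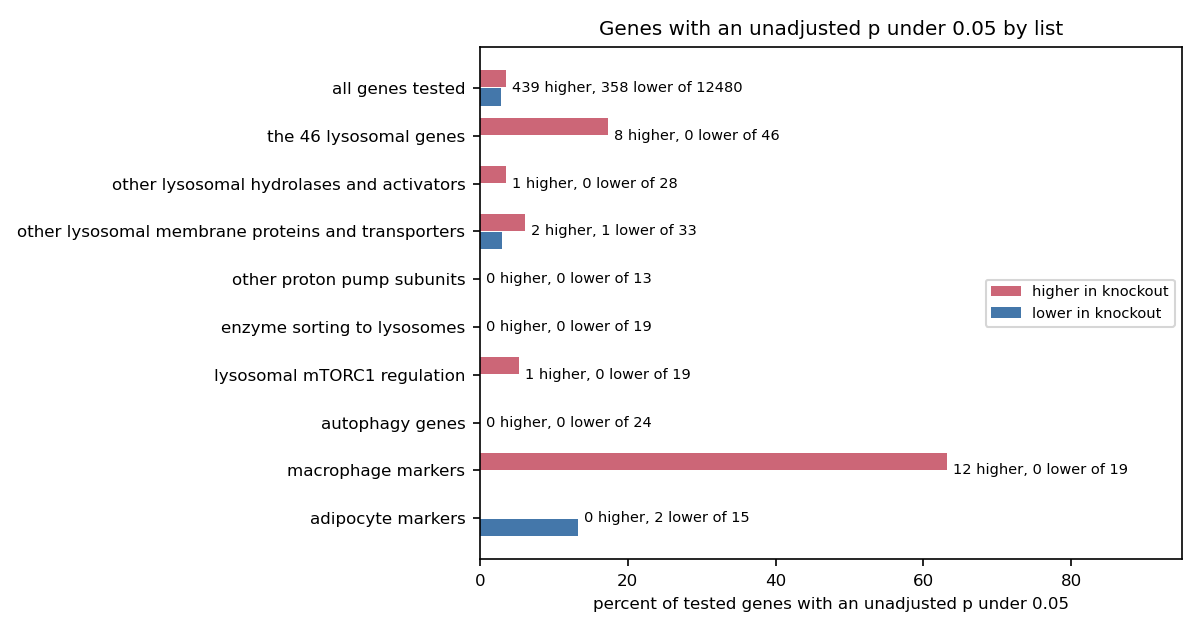
Percent of tested genes with an unadjusted p under 0.05 in edgeR's quasi-likelihood test, higher (red) or lower (blue) in the knockout libraries, for all genes, the 46 lysosomal genes, 6 related lists and 2 marker lists. The bar of the 46 reaches 17.4%, that of all genes 3.52%, and that of the macrophage markers 63.2%.

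Among the lysosomal membrane proteins, Laptm5 had the smallest p of all members. Laptm5 (chromosome 4, 130913125 to 130936141, GENCODE M21 on GRCm38) encodes a lysosomal transmembrane protein found mainly in blood-derived cells. Its level was 84.9, 76.2, 67.3 and 55.8 CPM for controls 1 to 4 and 118, 103, 109.8 and 112 CPM for knockouts 1 to 4. Every knockout library lay above every control library, and control replicate 4 was the lowest. The means were 71.0 ± 12.5 and 111 ± 6.15 CPM (SD, n = 4), giving log2 fold change 0.63 (SE 0.13, edgeR adjusted p = 0.108).

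RNA of Lamp1 and Lamp2, 2 classical markers of the lysosome membrane, was level or lower in the knockout libraries. Lamp1 and Lamp2 encode the heavily glycosylated proteins that line the inner face of the membrane. Lamp1 was at 426, 389, 393 and 360.2 CPM among controls and 419.9, 352, 353 and 396 CPM among knockouts. The 2 genotypes overlapped, with a log2 fold change of -0.05 and a 95% interval from -0.28 to 0.19. Lamp2 was at 365, 308, 334 and 331 CPM among controls and 299, 293, 299 and 283 CPM among knockouts. All 4 knockout libraries lay below all 4 control libraries, a pattern shown by 1 member and by 1.72% of all tested genes. Its log2 fold change was -0.19 with a 95% interval from -0.41 to 0.03 (edgeR unadjusted p = 0.084, adjusted p = 0.83).

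The other 5 membrane proteins had log2 fold changes from -0.12 to 0.14, each with overlapping libraries. They were Mcoln1, the calcium channel of the lysosome membrane (-0.12), Laptm4a, a small membrane protein related to Laptm5 (-0.09), Cln3, the gene mutated in juvenile Batten disease (0.02), Scarb2, the carrier of glucocerebrosidase (0.03), and Cd63, a tetraspanin (0.14). Cd63 shares 519 of its 3869 words of 31 bases with the pseudogene Cd63-ps, so the division of its reads is uncertain.

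Creg1 had the largest difference among the lumenal proteins. Creg1 (chromosome 1, 165763746 to 165775308) encodes a glycoprotein that is secreted and taken up into lysosomes. It was at 114, 84.1, 98.2 and 75.0 CPM for controls 1 to 4 and 133, 143, 152 and 145 CPM for knockouts 1 to 4. No library of one genotype reached the other, and the knockout libraries lay within a narrow range. The means were 92.8 ± 17 and 143 ± 7.61 CPM (SD, n = 4), giving log2 fold change 0.62 (SE 0.13, edgeR adjusted p = 0.113). The 3 genes grouped with it had overlapping libraries: Grn, the precursor of the granulins (0.19), Pla2g15, the lysosomal phospholipase (0.27), and Acp2, an acid phosphatase (-0.08).

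Sphingolipids, the lipids built on a sphingoid base, are cut in the lysosome by hydrolases that need small activator proteins. Psap (chromosome 10, 60277627 to 60302597) encodes prosaposin, the precursor of the saposins, a set of such activators. Psap was at 806, 952, 1001 and 692 CPM for controls 1 to 4 and 1149, 1125, 1104 and 1284 CPM for knockouts 1 to 4. The genotypes did not overlap, with control replicate 4 the lowest library and knockout replicate 4 the highest. The means were 863 ± 141 and 1165 ± 81.1 CPM (SD, n = 4), giving log2 fold change 0.43 (SE 0.13, edgeR adjusted p = 0.45). Hexa, the alpha subunit of the beta-hexosaminidase that degrades GM2 ganglioside, was at 101, 109.6, 95.5 and 93.0 CPM among controls and 114, 123, 109 and 142 CPM among knockouts. Knockout replicate 3 fell inside the control range and the other 3 lay above it. The log2 fold change of Hexa was 0.29, SE 0.12 (edgeR adjusted p = 0.704).

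The other 5 sphingolipid genes gave no unadjusted p under 0.05. Gm2a, the activator that works with the hexosaminidase, had a log2 fold change of 0.03, at 288 to 379 CPM among controls and 292 to 386 CPM among knockouts. Smpd1, acid sphingomyelinase, stood at 0.04 and Arsa, the sulfatase of sulfatides, at 0.17. Galc, which removes galactose from galactosylceramide, stood at -0.20, and Asah1, acid ceramidase, at -0.18. Asah1 was at 53.1 to 62.8 CPM among controls and 48.4 to 54.4 CPM among knockouts, so the genotypes overlapped.

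Glycan hydrolases cut sugars from larger molecules, such as glycoproteins and glycogen, and none of the 7 had an unadjusted p under 0.05. Gusb, beta-glucuronidase, had the smallest p of the 7. It was at 47.9, 36.4, 44 and 37.8 CPM among controls and 54.0, 42.0, 46.9 and 67.6 CPM among knockouts. Of the knockout libraries, 2 lay above every control library, and the log2 fold change was 0.34, SE 0.17 (edgeR unadjusted p = 0.0605, adjusted p = 0.809). Fuca1, the fucosidase, stood at -0.26, Manba, the beta-mannosidase, at -0.36, and Gaa, the enzyme of lysosomal glycogen breakdown, at -0.08. Man2b1, the alpha-mannosidase, stood at 0.00 and Neu1, the sialidase, at 0.22. Glb1, the beta-galactosidase used as a stain for senescent cells, stood at 0.36 with a 95% interval from -0.50 to 1.23. It was at 3.85 CPM in control replicate 4 and at 18.2 to 28.7 CPM in the other control libraries, and without that library its log2 fold change was 0.07. Glb1 shares 165 exon bases and 136 words of 31 bases with the gene Tmppe on the same strand.

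Glycosaminoglycans, the sugar chains of proteoglycans, are taken apart from their ends by sulfatases and glycosidases acting in turn. All 5 genes of this group had higher knockout means, with log2 fold changes from 0.07 to 0.39, and none had an unadjusted p under 0.05. The smallest p of the 5 belonged to Idua, alpha-iduronidase. Idua was at 16.8, 13.4, 16.1 and 17.3 CPM among controls and 15.3, 20.2, 20.9 and 24.9 CPM among knockouts. Knockout replicate 1 lay within the control range and the other 3 above it, and the log2 fold change was 0.36, SE 0.22 (edgeR unadjusted p = 0.114, adjusted p = 0.877). Sgsh, the sulfamidase of heparan sulfate, stood at 0.39, Arsb, a sulfatase of dermatan and chondroitin sulfate, at 0.18, Naglu, an N-acetylglucosaminidase, at 0.08 and Ids, iduronate sulfatase, at 0.07. Sgsh shares 955 exon bases with Card14 on the opposite strand, and whether counting used strand is not given in the sources used here.

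Of the 4 genes of protein breakdown, Lgmn had an unadjusted p under 0.05. Lgmn encodes legumain, a protease that cuts after asparagine. It was at 74.7, 70.8, 90.6 and 67.4 CPM among controls and 90.7, 115, 78.7 and 96.9 CPM among knockouts. The genotypes overlapped, since knockout replicate 3 lay below control replicate 3. The log2 fold change was 0.33, SE 0.14 (edgeR adjusted p = 0.731). Ppt1, which removes palmitate from proteins, stood at 0.16, Tpp1, a tripeptidyl peptidase, at 0.12, and Dpp7, a dipeptidyl peptidase, at -0.02.

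**Figure D3:**
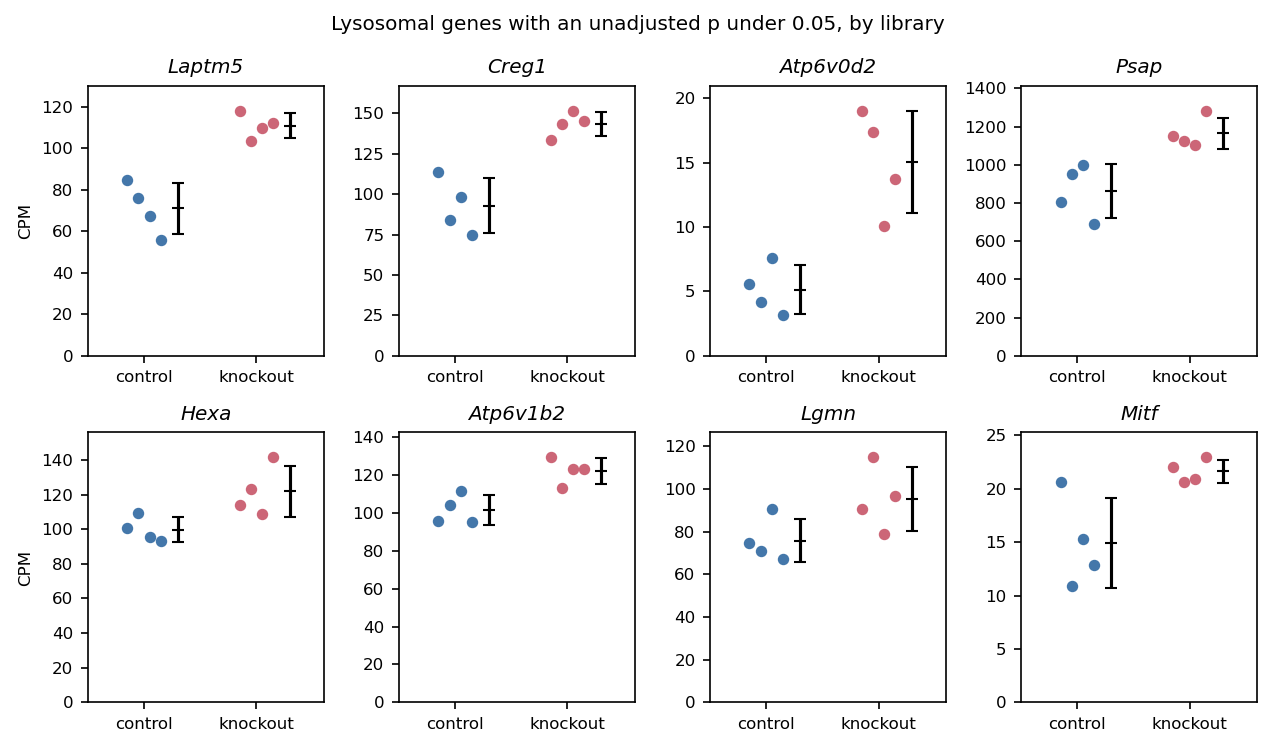
CPM in each of the 8 libraries for the 8 lysosomal genes with an unadjusted p under 0.05, in order of p, with points in replicate order and black bars for mean ± SD (n = 4). The genotypes do not overlap for Laptm5, Creg1, Atp6v0d2, Psap and Atp6v1b2, and overlap for Hexa, Lgmn and Mitf.

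The vacuolar proton pump joins a cytosolic sector that splits ATP to a membrane sector that carries protons, and the d subunit links the stalk between them. Mice have 2 genes for this subunit. Atp6v0d1 is expressed in most tissues, and Atp6v0d2 is known from osteoclasts, macrophages and a few epithelia. Atp6v0d2 (chromosome 4, 19876841 to 19922605) was at 5.59, 4.18, 7.62 and 3.21 CPM for controls 1 to 4 and 19, 17.3, 10.1 and 13.7 CPM for knockouts 1 to 4. The lowest knockout library lay above the highest control library, although these are small counts, 5 to 17 estimated counts in the control and 26 to 43 in the knockout libraries. The means were 5.15 ± 1.92 and 15 ± 3.98 CPM (SD, n = 4), giving log2 fold change 1.51 (SE 0.34, 95% interval 0.80 to 2.23, edgeR adjusted p = 0.151).

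Atp6v0d1, the widespread partner, had nearly equal means in the 2 genotypes. It was at 105, 104, 105 and 100.01 CPM among controls and 92.5, 103, 98.9 and 117 CPM among knockouts. The knockout libraries lay on both sides of the control libraries, with a log2 fold change of -0.01 and a 95% interval from -0.24 to 0.23. The intervals of the 2 genes do not overlap, and their difference was not tested.

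Atp6v1b2 encodes an ATP-binding subunit of the cytosolic sector. It was at 95.6, 104, 111 and 94.9 CPM among controls and 129, 113, 123 and 123 CPM among knockouts. The libraries did not overlap, by a narrow margin between control replicate 3 and knockout replicate 2. The log2 fold change was 0.26, SE 0.11 (edgeR adjusted p = 0.704). The other 5 pump genes had log2 fold changes from -0.09 to 0.10 and overlapping libraries. They were Atp6v1a, the catalytic subunit (0.10), Atp6v0c, which forms the proton-carrying ring (0.01), Atp6v1h, a regulatory subunit (-0.09), and the accessory proteins Atp6ap1 (-0.09) and Atp6ap2 (0.00). Atp6v0c shares 404 of its 3403 words of 31 bases with Atp6v0c-ps2, and Atp6ap2 shares 191 of 2587 with Gm36448. In all, libraries did not overlap and were higher in the knockout for 5 of 46 members, or 10.9%, against 2.52% of all tested genes.

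Laptm5, Creg1, Atp6v0d2 and Psap kept an unadjusted p under 0.05 in all 15 other analyses run, which changed the scaling, the filter, the test, the pairing or 1 library. Hexa, Atp6v1b2, Lgmn and Mitf did not. Without control replicate 4 only the first 4 of the 8 kept such a p, and the same held without knockout replicate 4. Those 2 libraries had the lowest and the highest summed macrophage markers, and were also the smallest and the largest by total estimated counts (1538427 and 3053565). The part of either in the loss of calls was not tested.

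Set beside the macrophage markers library by library, control replicate 4 stood lowest for some members and highest of the controls for others. It had the lowest macrophage sum and the lowest values of Laptm5, Creg1, Atp6v0d2 and Psap. It was also the lowest control library for Lamp1 and Atp6v0d1, and for Hexa. Other members had their highest control value in it, among them Fuca1 (203 CPM), Cd63 (611 CPM), Scarb2 (123 CPM) and Tfeb (19.2 CPM). In control replicate 4, 16 of the 46 members lay above their own mean over the 8 libraries. Among the knockout libraries, replicate 4 had the highest macrophage sum and the highest Psap, Atp6v0d1 and Hexa, but not the highest Laptm5, Creg1 or Atp6v0d2. Over all 46 members, the median distance from a gene's own mean was lowest in control replicate 4 (-0.06 on the log2 scale) and highest in knockout replicate 4 (0.15).

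**Figure D4:**
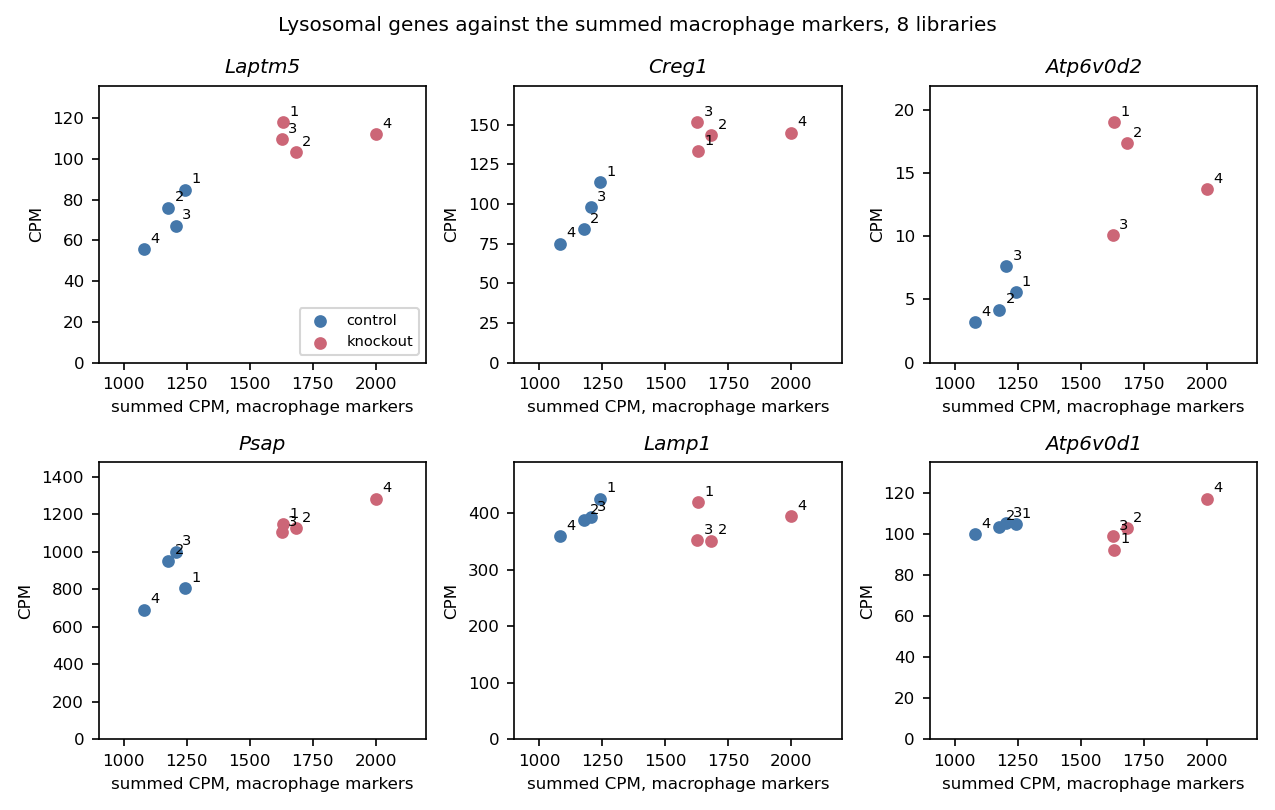
CPM of 6 lysosomal genes (y axes, from 0) against the summed CPM of 20 macrophage markers (x axes, starting above 0) in 4 control (blue) and 4 knockout (red) libraries, numbered by replicate. Laptm5, Creg1, Atp6v0d2 and Psap separate by genotype, as the macrophage sum does, whereas Lamp1 and Atp6v0d1 overlap. The first 4 are the members with the smallest p, so this contrast is fixed by the choice of genes. Not drawn are Atp6v1b2, which separates with higher knockout values, and Lamp2, which separates with lower ones.

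The 3 transcription factors that drive lysosomal genes had no adjusted p under 0.05. Tfeb was at 15, 7.95, 13.9 and 19.2 CPM among controls and 14.7, 14.5, 19 and 9.51 CPM among knockouts. Tfe3 was at 31.8, 28.9, 35.4 and 31.4 CPM among controls and 31.6, 33.9, 38.0 and 27.5 CPM among knockouts. Both overlapped between genotypes, with log2 fold changes of 0.05 for Tfeb (95% interval -0.59 to 0.69) and 0.04 for Tfe3 (-0.30 to 0.38). Both signs turned negative without control replicate 2 and without knockout replicate 3. Mitf, the family member best known from pigment cells, osteoclasts and mast cells, was at 20.6, 10.9, 15.2 and 12.8 CPM among controls and 22.0, 20.6, 20.9 and 23.0 CPM among knockouts. Control replicate 1 stood level with the knockout libraries and the other 3 control libraries lay below them. The log2 fold change of Mitf was 0.52, SE 0.22 (edgeR unadjusted p = 0.0354, adjusted p = 0.732). These proteins are controlled largely by where they sit in the cell, which RNA does not measure.

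The promoter element of these factors has the core CACGTG, often in longer forms in which the core is flanked by T and A, or by GT and AC. Each longer form contains the shorter ones, and all read the same on both strands. RefSeq promoters (GRCm38.p6, from 250 bases before to 50 after a start) were matched by symbol for 42 of 46 members, with 52 windows in all. Asah1, Atp6v0d2, Atp6v1b2 and Atp6v1h were not matched. CACGTG was found for 12 of 42 members (28.6%), against 11.8% of 9467 genes past the low-count filter and 8.09% of all 27025 genes with a promoter. The form flanked by T and A was found for 5 of 42 members (11.9%, against 2.21% and 1.12%) and the form flanked by GT and AC for 1, Cln3 (2.38%, against 0.76% and 0.37%). The median GC content of the windows was 56.5% for members and 60.7% for genes past the filter.

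These stretches show what the element looks like in 5 members that carry it, followed by 3 members described above that lack it. They were picked by hand for the element and for the members' values, so any contrast between them is fixed by that choice, and all but 4 of the 30 members without the element also overlapped between the genotypes. Each runs 5′ to 3′ along the gene's strand, from 150 bases before the RefSeq start to the base before it, or 4 bases further for Atp6v0d1, with CACGTG and its longer forms in capitals.
Lamp1 (chr8:13159011-13159160, + strand): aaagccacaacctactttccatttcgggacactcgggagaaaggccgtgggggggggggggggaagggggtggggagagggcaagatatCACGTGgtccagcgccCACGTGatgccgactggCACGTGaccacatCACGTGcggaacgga
Mcoln1 (chr8:3500369-3500518, + strand): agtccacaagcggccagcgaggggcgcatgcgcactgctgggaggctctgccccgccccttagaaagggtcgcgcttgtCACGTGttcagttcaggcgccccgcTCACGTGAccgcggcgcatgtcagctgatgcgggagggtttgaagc
Cln3 (chr7:126583237-126583386, - strand): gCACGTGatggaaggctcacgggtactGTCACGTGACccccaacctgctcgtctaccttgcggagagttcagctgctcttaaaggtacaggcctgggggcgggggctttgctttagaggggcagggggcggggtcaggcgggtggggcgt
Atp6v0d1 (chr8:105566061-105566214, - strand): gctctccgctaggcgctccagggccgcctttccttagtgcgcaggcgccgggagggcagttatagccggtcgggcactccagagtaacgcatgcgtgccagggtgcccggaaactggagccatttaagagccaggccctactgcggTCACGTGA
Lgmn (chr12:102439093-102439242, - strand): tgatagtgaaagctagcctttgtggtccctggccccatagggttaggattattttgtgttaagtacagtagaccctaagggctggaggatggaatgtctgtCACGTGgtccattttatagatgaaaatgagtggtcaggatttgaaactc
Creg1 (chr1:165763608-165763757, + strand): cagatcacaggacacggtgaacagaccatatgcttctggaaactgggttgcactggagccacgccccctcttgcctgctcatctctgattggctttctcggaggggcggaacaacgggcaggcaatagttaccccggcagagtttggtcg
Laptm5 (chr4:130913166-130913315, + strand): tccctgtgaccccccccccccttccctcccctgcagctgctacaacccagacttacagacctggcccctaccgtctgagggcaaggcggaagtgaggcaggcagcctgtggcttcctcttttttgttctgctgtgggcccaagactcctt
Psap (chr10:60277478-60277627, + strand): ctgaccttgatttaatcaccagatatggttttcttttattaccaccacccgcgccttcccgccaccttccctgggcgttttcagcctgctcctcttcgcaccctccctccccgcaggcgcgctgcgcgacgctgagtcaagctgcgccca
Lamp1 holds CACGTG 4 times in this stretch, Mcoln1 and Cln3 2 times each, and Atp6v0d1 and Lgmn once. For Cln3 and Lgmn the stretch belongs to 1 of 2 annotated starts, the one whose window holds the element, and for Psap to the start nearest the annotated gene start. Creg1, Laptm5 and Psap hold none in any of their windows. A match is a run of letters and does not show that a factor binds, and its absence here covers these windows only.

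Fold changes were also set out for members with and without the element. For the 12 members with CACGTG the median was 0.05 on the log2 scale, with 7 higher (58.3%, against 49.7% of all tested genes) and 1, Lgmn, higher at an unadjusted p under 0.05 (8.33%, against 3.52%). The 30 with a promoter but without CACGTG had a median of 0.06, with 23 higher (76.7%) and 5 higher at such a p (16.7%). None of the 12 had libraries that separated by genotype. Of the 30, Laptm5, Creg1 and Psap separated with higher and Lamp2 with lower knockout values. Among all tested genes 2.52% separated higher and 1.72% lower, so a count of 0 among 12 is near the background and is no result about these genes. The difference between the 12 and the 30 was not tested.

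Genes of the same pathway outside the 46 were taken from 6 lists, 147 genes in all, of which 136 were tested. At an adjusted p of 0.05 none of the 136 passed (edgeR quasi-likelihood); 4 were higher and 1 lower at an unadjusted p under 0.05, and the median log2 fold change was 0.02. The higher share was 2.94%, against 3.52% of all tested genes, and the 1 lower gene of 136 stands against 2.87% of all tested genes. Whatever the p, 74 of the 136 had higher means (54.4%, against 49.7% of all tested genes). Among other hydrolases and activators, 13 of 28 were higher, and Pld3, a lysosomal nuclease, was at 39.5, 31.8, 34.5 and 51.9 CPM among controls and 64.1, 66.2, 64.8 and 48.9 CPM among knockouts. Control replicate 4 and knockout replicate 4 crossed, and the log2 fold change of Pld3 was 0.64 (edgeR adjusted p = 0.291). Pcyox1, a prenylcysteine oxidase, was next by p in that list, at 0.31 (edgeR adjusted p = 0.815).

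Among other lysosomal membrane proteins 16 of 33 were higher. Slc36a1, a proton-coupled amino acid transporter, stood at 9.09 ± 1.66 CPM among controls and 15.4 ± 3.84 CPM among knockouts (SD, n = 4), for log2 fold change 0.77 and an adjusted p of 0.634 by edgeR. Tmem63a, a mechanically gated channel, stood at 21.5 ± 4.12 and 14.6 ± 1.85 CPM (SD, n = 4), for log2 fold change -0.54 and an adjusted p of 0.695 by edgeR. Npc1, the cholesterol exporter, was the third gene of the list with an unadjusted p under 0.05, at 38.2 ± 2.70 and 49.8 ± 10.9 CPM (SD, n = 4), for log2 fold change 0.39 and an adjusted p of 0.713 by edgeR.

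The remaining subunits of the proton pump gave no unadjusted p under 0.05 among 13 tested. Of all tested genes 6.39% had such a p, so a count of 0 among 13 is near the background. Higher means were found for 9 of the 13 (69.2%, against 49.7% of all tested genes). Their smallest p-values belonged to Atp6v0a4 (log2 fold change -0.56) and Tcirg1, the a subunit of osteoclasts (0.15). Tcirg1 overlapped between the genotypes, at 33.6 to 45.4 CPM among controls and 38.5 to 44.9 CPM among knockouts. Sorting genes, which carry enzymes to the lysosome, had a median of 0.01 over 19 tested, with 11 higher. Igf2r, a mannose phosphate receptor, stood at 0.29 and Gga1, a sorting adaptor, at -0.23. The mTORC1 genes of the lysosome surface had a median of -0.02 over 19 tested, with 9 higher. Fnip2, a folliculin partner, stood at 0.47 (edgeR unadjusted p = 0.0442) and Rraga, a Rag GTPase, at 0.24. Autophagy genes had a median of 0.09 over 24 tested, with 16 higher and none at an unadjusted p under 0.05. Wipi1 stood at 0.28 and Uvrag at 0.28 in that list.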

How the data were processed

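RNA of 8 epididymal fat samples was sequenced by BRB-seq, a 3′-end method with oligo-dT priming, Tn5 tagmentation, 10 cycles of PCR and reads of 51 bases, per the labels' protocols. The authors deposited estimated counts per gene without normalization, of which 59.6% of values above 0 are whole; Salmon and GRCm38 are named in the submitters' processing notes, while versions, annotation and use of molecular identifiers are not given in the sources used here. Identifiers were matched without version to GENCODE M21 (34652 of 34866), and coordinates are from that annotation. Estimated counts were rounded and tested with edgeR 4.0.16 in R 4.3.3 (robust quasi-likelihood F test, genotype as the only term, TMM factors, filterByExpr, Benjamini-Hochberg over 12480 genes). CPM and their SD come from unrounded counts on TMM-scaled library sizes. DESeq2 1.42.0 and limma 3.58.1 were alternatives, and the fits were first tested on simulated data.

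The 46 members and all lists were chosen with earlier results of these data known, so no p is adjusted over a list. Values in every library are printed for each member with an unadjusted p under 0.05, for Tfeb, Tfe3, Mitf, Atp6v0d1, Atp6v0d2, Lamp1 and Lamp2, and for the member with the smallest p in each role. Of the other lysosomal lists, the 2 genes with the smallest p in each and any past the threshold were to be named; Npc1 was named after its values were seen. Shared words of 31 bases, exon overlaps and promoter motifs were computed from GENCODE M21 and RefSeq. Replicate pairs differed by 4.48 to 9.4 in chi-square per degree of freedom, so none looked like 1 library deposited in duplicate.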

Additional observations from a re-analysis of the deposited data

Results flagged for a closer look

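For each of the 46 genes, the 4 libraries of a genotype were examined for one far from the rest (Dixon's criterion, 95% level), which makes 92 groups. Such a library was found in 2 groups, and chance alone would do so in about 5 of 100. The control 1 level of Galc, 19.96 CPM, lay below the other controls (26.5 to 27.6 CPM). The control 3 level of Atp6v1h, 89.71 CPM, lay above the other controls (75.7 to 76.7 CPM).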

How the results depend on the processing

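Beside the main analysis, 15 others were run. Of all genes, 21 passed an adjusted p of 0.05, against 58 without a low-count filter, 55 with DESeq2 and 6 with the replicate block. Of the 46 members 0 passed, against 3 without a low-count filter (58 genes in all) and 3 with DESeq2: Laptm5 (adjusted p = 0.0114 and 0.0156), Creg1 (0.0109 and 0.0155) and Atp6v0d2 (0.0264 and 0.0197). Over all 15 alternatives adjusted p ranged from 0.0114 to 0.449 for Laptm5, 0.0109 to 0.465 for Creg1 and 0.0197 to 0.475 for Atp6v0d2. The 8 members with an unadjusted p under 0.05 became 5 with the replicate block. Of the genes of the 6 other lists, 5 had an unadjusted p under 0.05, against 8 with limma-voom and 3 with the replicate block. Same-numbered libraries correlated at 0.25, -0.06, -0.01 and -0.24 in their deviations from group means. With 4 libraries a genotype, these values cannot show whether same-numbered libraries have more in common than the number. Leaving out 1 library gave 4 (without control replicate 2) to 43 (without control replicate 4) genes, 4 to 8 members with an unadjusted p under 0.05, and 3 to 9 genes of the other lists. Cyp19a1, at -0.446 as a log2 ratio of mean CPM, ranged from -1.18 to 0.327 and reversed to 0.327 without control replicate 3. With 1 library left out, log2 fold changes ranged from -0.0785 to 0.0411 for Atp6v0d1, -0.0433 to 0.115 for Tfe3 and -0.148 to 0.218 for Tfeb. Signs reversed for Atp6v0d1 without control replicate 3 (0.00376), knockout replicate 1 (0.0411) and knockout replicate 3 (0.0116), and without control replicate 2 and knockout replicate 3 for Tfe3 (-0.00859 and -0.0433) and Tfeb (-0.148 and -0.114). The other 12 members printed with values in every library kept their direction in all 15 alternatives, as did 20 of the remaining 31. For these changes the cause was not tested. Cyp19a1 did not pass the low-count filter, and of the fits across genes only that without the filter gave it a value (-0.359).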
